A study of Mus musculus with 4 samples.

Results

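Cardiomyocyte nuclei of hearts with a corrected homozygous Rbm20 mutation were set beside those of hearts with a heterozygous mutation. The comparison holds 5847 nuclei out of 45992 barcodes in the series, 2490 from the heterozygous library (25.6% of its 9734 barcodes) and 3357 from the corrected library (22.2% of its 15153). They were chosen by measured values: at least 300 genes, a mitochondrial share of at most 5%, at least 2.5% of UMIs from Ttn, Ryr2, Myh6 and Rbm20, and at most 3 UMIs each from an endothelial group (Flt1, Ptprb, Cyyr1) and a fibroblast group (Pdgfra, Dcn, Col1a2, Abca8a). Those 11 genes are therefore described and support no statement. UMIs, the unique molecular identifiers that stand for single captured transcripts, were then summed over the nuclei of a library and compared gene by gene.

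All hearts came from C57BL/6 mice aged 6 months, and each library pooled nuclei of 3 hearts profiled with a 10x Genomics 3′ assay. The labels give 4 genotypes with 1 library each: WT, a heterozygous RBM20 mutation (RBM20 het), a homozygous RBM20 mutation (RBM20 homo), and the homozygous mutation with gene editing correction (RBM20 homo with correction, here the corrected library). The allele, the editor, its delivery and the age at treatment are not given in the sources used here. The corrected library thus differs from the heterozygous one both in its starting genotype and in having been treated, and the effects of those cannot be told apart. Each genotype is 1 library (n = 1), so no replicate error exists and no significance test was possible. Every difference is one between 2 libraries of pooled hearts. Intervals in brackets are 95% intervals of counting error only.

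RBM20 is an RNA-binding protein of striated muscle that represses exons while transcripts are spliced. Its known targets include the giant sarcomere protein titin, the calcium/calmodulin-dependent kinase CaMKII delta and the ryanodine receptor, and mutations in its RS-rich region cause dilated cardiomyopathy. Counts of 3′ ends report how much of a transcript a nucleus holds and not how it was spliced or which base the edited codon carries, so neither the edit nor titin isoforms were read here. A nucleus also captures mostly unspliced RNA, and droplets take up free RNA from broken cells.

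The gated nuclei held 15971643 non-mitochondrial UMIs in the heterozygous library and 16956691 in the corrected library, with medians of 5694 and 4546 UMIs per nucleus. The same gate gave 3178 nuclei in WT and 2962 in RBM20 homo. Nuclei with 2% to 2.5% of UMIs from the cardiomyocyte genes, just outside the gate, numbered 53 in the heterozygous and 98 in the corrected library, against 121 and 140 just inside it (2.5% to 3%). The endothelial and fibroblast limits had removed a further 441 and 620. Barcodes shared by the 2 libraries numbered 35, of which 6 were gated nuclei in both. Among the gate genes, Ttn was at 21058 UMIs per 1000000 non-mitochondrial UMIs (CPM) in the heterozygous and 21807 in the corrected library, Ryr2 at 11888 and 13538, Myh6 at 10674 and 11021, and Rbm20 itself at 4529 and 4613. The 9 cardiomyocyte markers outside the rule were all detected in both libraries, but so were all fibroblast and endothelial markers. Detection alone therefore sets no label. All but Myh7b in the heterozygous library had higher levels here than in the endothelial and fibroblast gates described below. Tnnt2, for example, was at 5902 and 5914 CPM here, at 505 and 632 in endothelial and at 403 and 500 in fibroblast nuclei. Of 6 atrial markers 4 were detected in the heterozygous and 5 in the corrected library, and Sln had no UMI in either. In each library 2 nuclei had 3 or more UMIs of the atrial genes Myl7, Myl4 and Sln.

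Cells of other types and free RNA did not weigh the same in the 2 libraries. Nuclei of an endothelial gate (over 3 UMIs of the endothelial group, at most 3 of the fibroblast group and under the cardiomyocyte share) took a median of 0.386% of their UMIs from the 4 cardiomyocyte genes in the heterozygous and 0.559% in the corrected library. In the matching fibroblast gate the medians were 0.262% and 0.383%. Macrophage markers in the cardiomyocyte nuclei summed to 70.4 CPM in the heterozygous and 119 CPM in the corrected library, with 5 of 6 markers past 1.5-fold. Pericyte markers summed to 215 and 349 CPM, smooth muscle markers to 11.1 and 6.84, endothelial markers to 75.6 and 91.4, and fibroblast markers to 2064 and 1870. The last sum rested on Lama2, at 1875 and 1643 CPM, and the other 7 fibroblast markers summed to 189 and 227 CPM. Of the 8 fibroblast markers 7 were higher, 2 of them past 1.5-fold. These counts and sums include the gate genes Pdgfra, Dcn, Col1a2 and Abca8a, which support no statement. Outside the gate, the corrected to heterozygous ratios were 1.76 for Col3a1, 1.23 for Col1a1, 1.12 for Gsn and 0.876 for Lama2. The endothelial sum likewise includes the gate genes Flt1, Ptprb and Cyyr1. Its other markers were Pecam1 (1.28-fold), Cdh5 (1.34-fold), Kdr (1.29-fold), Emcn (1.37-fold) and Vwf (0.881-fold). The pericyte sum rested on Abcc9, at 182 and 291 CPM, which is also a gene of cardiac potassium channels. The other measured pericyte markers were past 1.5-fold higher too, at low levels: Pdgfrb at 14.4 and 26.8 CPM, Rgs5 at 12.3 and 21.2, and Kcnj8 at 3.88 and 6.55. The part of these shifts in the results below was not tested beyond the values given beside them.

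Of 11445 genes with at least 100 UMIs over the 2 libraries, 416 were more than 1.5-fold higher in the corrected library (3.63%) and 327 more than 1.5-fold lower (2.86%). Past 2-fold the shares were 0.795% and 0.638%. The median log2 ratio, corrected to heterozygous, was 0.01, and 51.6% of genes were higher in the corrected library at all, so the 2 libraries lay close together over most of the transcriptome. The 5th and 95th percentiles of the log2 ratio were -0.46 and 0.51. A small group of genes stood far outside that range, and they included a myosin gene, a liver-type esterase gene and several, but not all, genes of the circadian clock.

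**Figure D1:**
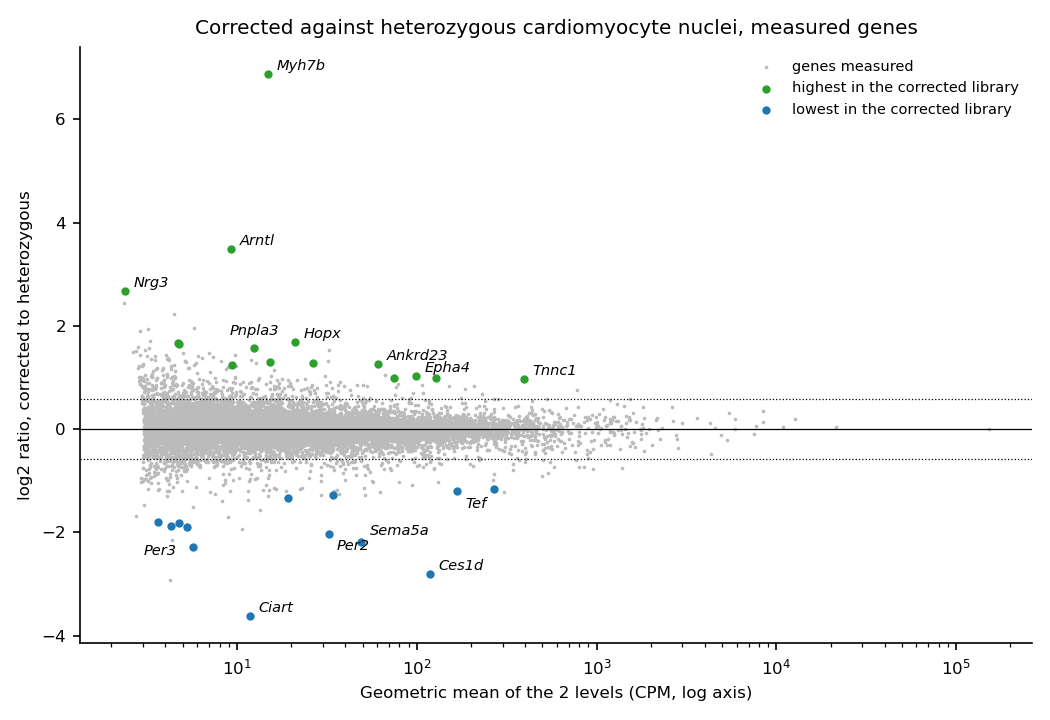
Each point is a measured gene, with the geometric mean of its levels in the 2 libraries on a log axis (CPM) and the log2 ratio of the corrected to the heterozygous library; dotted lines mark 1.5-fold. The 15 highest genes are green and 13 of the lowest blue. Myh7b, at a log2 ratio of 6.88, and Arntl, at 3.5, stand above the cloud, and Ciart, at -3.63, and Ces1d, at -2.81, below it.

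Myh7b, which encodes a slow-type myosin heavy chain and carries the microRNA gene Mir499 in an intron, separated the 2 libraries most. Myh7b (ENSMUSG00000074652, GRCm38 chromosome 2, 155611212 to 155634307, plus strand, protein coding) stood at 1.38 CPM in the heterozygous library (22 UMIs) and at 162 CPM in the corrected library (2750 UMIs), 118-fold higher [77.6 to 188]. Beside them it was at 350.0 CPM in WT and 0.304 in RBM20 homo. The corrected level was thus under the WT level, while the heterozygous level lay far below it and above that of RBM20 homo. Trpc4ap overlaps it on the other strand and was at 63.6 CPM in the heterozygous and 67.5 CPM in the corrected library. Whether counting used the strand is not given in the sources used here.

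Myh7b was also uneven from nucleus to nucleus. After each nucleus was thinned to 2000 UMIs, which left out 42 heterozygous and 180 corrected nuclei, 20.02% of corrected nuclei had a Myh7b UMI [18.6 to 21.5], against 0.368% of heterozygous nuclei [0.168 to 0.697] and 46.3% in WT. Unthinned, the shares were 32.2%, 0.643% and 70.1%. Endothelial nuclei, which should not make Myh7b, had a UMI in 3.31% of corrected nuclei at the same depth and in 0.279% of heterozygous nuclei. Their median depth before thinning was 1755 and 1882.5 UMIs, below that of the cardiomyocyte nuclei. The heterozygous cardiomyocyte share was therefore near its own background, and the corrected share was well above it. The ratio of variance to mean of the thinned Myh7b counts was 1.80 in the corrected library and 1.38 in WT, where 1 is what counting alone gives.

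Hopx, a homeodomain gene that restrains serum response factor in the developing heart, had the same order of libraries. It stood at 11.8 CPM in the heterozygous and 37.9 CPM in the corrected library, 3.22-fold higher [2.73 to 3.81], with 76.2 CPM in WT and 0.913 in RBM20 homo. At 2000 UMIs, 6.45% of corrected and 2.41% of heterozygous nuclei had a Hopx UMI, against 1.46% and 1.4% of endothelial nuclei. Unthinned, 13.3% and 6.47% of cardiomyocyte nuclei did. Tnnc1, which encodes cardiac troponin C, followed at 283 CPM in the heterozygous and 555 CPM in the corrected library, 1.96-fold higher [1.89 to 2.03]. Its WT and RBM20 homo levels were 629 and 674 CPM, so the heterozygous library was the low one of the 4. Tnnc1 was also higher in the corrected endothelial nuclei (42.2 and 99.4 CPM) and fibroblast nuclei (37.3 and 69.7 CPM), the direction in which their cardiomyocyte-gene share moved.

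The corrected library carried the added features ABE_C and ABE_N, which had 2516 and 3550 UMIs in its gated nuclei and none in the other libraries. Within it, Myh7b was at 251 CPM in the 1317 nuclei with an ABE UMI and at 86.8 CPM in the 2040 without, and Hopx at 53.1 and 25.1 CPM, with medians of 5337 and 4052 UMIs per nucleus.

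Ces1d, a carboxylesterase best known for lipid hydrolysis in liver and fat, was at 315 CPM in the heterozygous and 45 CPM in the corrected library, 7.01-fold lower [6.49 to 7.57]. In WT it was at 219 CPM and in RBM20 homo at 62.2 CPM, so here the corrected library lay beside the untreated homozygous one. The endothelial nuclei held 29.6 and 6.41 CPM and the fibroblast nuclei 33.2 and 6.79 CPM, in the same direction. Sema5a, a semaphorin of axon guidance, was at 104 CPM in the heterozygous and 23.0 CPM in the corrected library, 4.54-fold lower [4.06 to 5.08]. WT stood at 56.5 CPM and RBM20 homo at 235 CPM, which put the corrected library below all 3 others. In fibroblast nuclei, where the gene is strong, Sema5a was at 260 CPM in the heterozygous and 247 CPM in the corrected library.

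**Figure D2:**
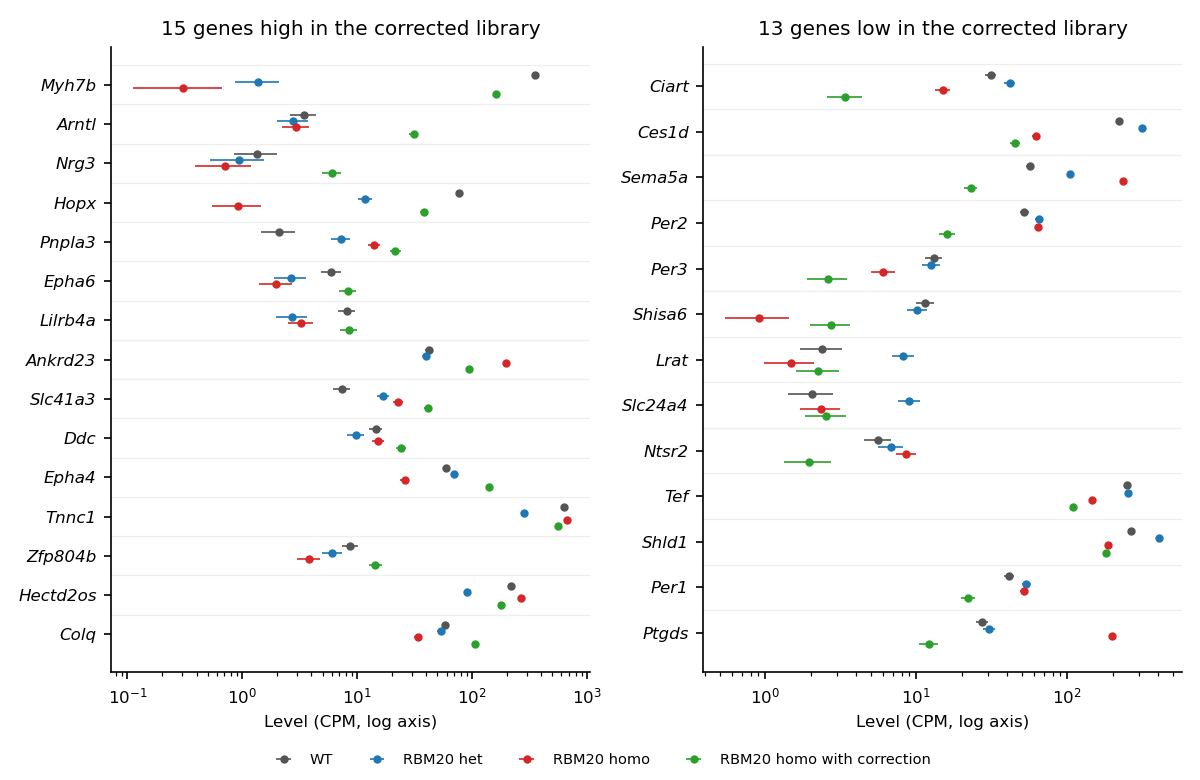
Levels (CPM, log axis) of the 15 genes highest (left) and 13 of those lowest (right) in the corrected against the heterozygous library, in cardiomyocyte nuclei of all 4 libraries, 1 point per library; bars are 95% Poisson intervals of counting error. For Myh7b and Hopx the corrected point lies between heterozygous and WT, and for Arntl and Ciart it lies away from all 3 other libraries.

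The other genes ranked highest were of several kinds. Ankrd23, a stretch-responsive ankyrin repeat gene of the titin complex, was at 39.6 CPM in the heterozygous and 94.5 CPM in the corrected library, 2.39-fold higher [2.18 to 2.62], with 42.2 CPM in WT and 196 in RBM20 homo. Colq, the collagen tail of acetylcholinesterase, was at 53.3 and 106 CPM. Epha4, an ephrin receptor gene, was at 69.1 and 141 CPM, above WT at 59.6 and RBM20 homo at 25.9. Hectd2os, an antisense transcript to Hectd2, was at 90.5 and 179 CPM, while Hectd2 was at 18.3 and 15.2 CPM. Like Tnnc1, Hectd2os was lowest in the heterozygous library, since WT was at 220 CPM and RBM20 homo at 266.

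The remaining high-ranked genes had lower levels. Nrg3, a neuregulin ligand gene, rested on 15 UMIs in the heterozygous library and 102 in the corrected library (0.939 and 6.02 CPM). Pnpla3, a triglyceride lipase family gene, was at 7.2 and 21.5 CPM, Slc41a3, a magnesium transporter family gene, at 16.9 and 41.2, and Ddc, the gene of aromatic amino acid decarboxylase, at 9.70 and 23.9. Epha6, another ephrin receptor gene, was at 2.63 and 8.32 CPM, and Zfp804b, a zinc finger gene, at 6.07 and 14.4. The log2 ratio of Zfp804b was 1.24, and 0.22 in nuclei with a cardiomyocyte share of at least 5%. Lilrb4a, a leukocyte receptor gene, was at 2.69 and 8.43 CPM in cardiomyocyte nuclei and at 36.5 and 41.2 CPM in endothelial nuclei. Without nuclei that held a macrophage marker UMI, the log2 ratio of Lilrb4a was 2.08, against 1.65 with them. In 10 of these 15 highest genes the corrected level was the highest of all 4 libraries, and in 6 the heterozygous level was the lowest. The genes were ranked by the ratio of these 2 libraries, which favours both orders. The share over all genes was not taken, so these counts describe the ranked genes only.

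The low-ranked genes outside the clock were mostly of low level. Shld1, a subunit of the shieldin complex of DNA repair, was an exception at 404 CPM in the heterozygous and 181 CPM in the corrected library, 2.24-fold lower [2.14 to 2.33], with 266 in WT and 187 in RBM20 homo. Ptgds, prostaglandin D synthase, was at 30.5 and 12.1 CPM, with 27.4 in WT and 197 in RBM20 homo. Shisa6 (10.1 and 2.71 CPM), an auxiliary subunit of AMPA receptors, Lrat (8.20 and 2.24), which esterifies retinol, Slc24a4 (8.95 and 2.54), a sodium/calcium exchanger, and Ntsr2 (6.76 and 1.95), a neurotensin receptor, rested on 33 to 46 UMIs in the corrected library. For Lrat and Slc24a4 the heterozygous library stood apart, since WT was at 2.37 and 2.03 CPM and RBM20 homo at 1.47 and 2.33 CPM. In 11 of the 15 lowest genes the corrected level was the lowest of the 4 libraries, and in 8 the heterozygous level was the highest. The ranking favours these orders too, and the share over all genes was not taken.

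The clock genes Ciart, Per2, Per3, Tef and Per1 were among those 15, and Arntl ranked next to Myh7b among the highest. The circadian clock is a loop in which the activators ARNTL (BMAL1) and CLOCK or NPAS2 drive genes with an E-box, among them the Period and Cryptochrome repressors and the PAR bZIP factors DBP, TEF and HLF. The nuclear receptors REV-ERB (Nr1d1 and Nr1d2) and ROR repress and activate Arntl in turn, so the 2 arms of the loop peak at opposite hours of the day. The heart has such a clock in its myocytes and in its other cells, and the labels give no hour at which hearts were collected. Genotype and hour of collection therefore cannot be told apart for these genes.

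Stretches of clock gene promoters are shown because the clock factors are known to bind these letters; most listed genes had no match in the window searched. The letters CACGTG (E-box), AANTN followed directly by GGTCA (ROR element) and TTANGTAA (D-box) were searched on both strands in RefSeq windows (GRCm38.p6) of 300 bases, from 250 before to 50 after a start. Of the 19 listed clock genes 16 had a window. An E-box was found in 5 of these genes, against 8.09% of all 27025 genes with a window (7.15% of windows). A ROR element was found in 1, against 0.714% of genes (0.606% of windows), and a D-box in 1, against 2.72% of genes (2.32% of windows). A match describes letters and not a bound site. Capitals mark the motif, the flanks are lower case, and each stretch runs 5′ to 3′ along its gene's strand.
Ciart, E-box, chr3:95882299-95882384, minus strand: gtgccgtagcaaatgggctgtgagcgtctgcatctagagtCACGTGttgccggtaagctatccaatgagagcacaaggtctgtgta
Per1, E-box, chr11:69098743-69098828, plus strand: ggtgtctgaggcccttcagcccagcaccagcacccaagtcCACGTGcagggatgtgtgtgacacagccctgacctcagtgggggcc
Tef, E-box, chr15:81802506-81802591, plus strand: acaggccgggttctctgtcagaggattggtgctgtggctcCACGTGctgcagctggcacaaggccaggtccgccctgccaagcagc
Cry1, E-box, chr10:85185069-85185154, minus strand: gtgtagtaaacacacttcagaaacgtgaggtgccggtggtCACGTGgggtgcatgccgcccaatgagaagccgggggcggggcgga
Per3, D-box, chr4:151044823-151044910, minus strand: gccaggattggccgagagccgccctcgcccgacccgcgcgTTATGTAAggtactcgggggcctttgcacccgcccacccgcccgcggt
Arntl, ROR element, chr7:113207528-113207557, plus strand: ggaaggcagaAAGTAGGTCAgggacggagg

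In the activator arm, Arntl was at 2.75 CPM in the heterozygous library (44 UMIs) and 31.1 CPM in the corrected library (527 UMIs), 11.3-fold higher [8.29 to 15.7]. WT and RBM20 homo were at 3.41 and 2.94 CPM, so the corrected library was the high one of the 4. Clock, its partner, was at 58.0 and 102 CPM, 1.75-fold higher, and Npas2, the other partner, at 92.0 and 76.0 CPM. Cry1, a late repressor that peaks near the activators and was listed with them, was at 11.7 and 4.89 CPM. Of the 6 measured members of this list 2 were past 1.5-fold higher and 2 lower.

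In the repressor arm and output, 9 of 13 measured members were past 1.5-fold lower in the corrected library and none was past 1.5-fold higher, where 2.86% of all genes were lower. The list's median log2 ratio was -0.69, against 0.01 over all genes. Ciart, a repressor of the ARNTL-CLOCK pair, was at 41.5 CPM in the heterozygous and 3.36 CPM in the corrected library, 12.3-fold lower [9.41 to 16.5], with 31.1 in WT and 15 in RBM20 homo. Per3, Per2 and Per1, the Period repressors, were at 12.6, 65.2 and 53.5 CPM in the heterozygous and at 2.59, 16 and 22.1 CPM in the corrected library. Dbp, Tef and Hlf were at 76.0, 253 and 100 CPM against 34.4, 110 and 65.0 CPM. Nr1d1 (REV-ERB alpha) went the other way at 25.1 and 33.6 CPM, 1.34-fold higher [1.17 to 1.52], while Nr1d2 (REV-ERB beta) was at 230 and 155 CPM.

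The clock genes moved in the other nuclei of the same 2 libraries too. Arntl was at 6.58 and 68.5 CPM in heterozygous and corrected endothelial nuclei and at 7.48 and 78.9 CPM in fibroblast nuclei. In fibroblast nuclei 11 of 13 repressor and output genes were past 1.5-fold lower, with a median log2 ratio of -1.37, where 2.86% of all genes were lower. In endothelial nuclei 6 of 10 were, with a median of -0.86, where 2.2% of all genes were. Genes past 1.5-fold higher made up 3.06% of those measured in fibroblast nuclei and 2.81% in endothelial nuclei. Npas2 and Nr1d1 had different directions in different nuclei. Nr1d1, higher in corrected cardiomyocyte nuclei, had log2 ratios of 0.46 in endothelial and -0.46 in fibroblast nuclei. Npas2 was at 18.6 and 130 CPM in fibroblast nuclei and at 10.4 and 26.9 CPM in endothelial nuclei, but lower in corrected cardiomyocyte nuclei. These differences between kinds of nuclei were not tested. Of the 15 highest genes 8 were measured in endothelial nuclei, and 5 of them were past 1.5-fold higher there too (Myh7b, Arntl, Tnnc1, Zfp804b and Hectd2os). In fibroblast nuclei 3 of 10 were (Myh7b, Arntl and Tnnc1). Of the 15 lowest genes, 5 of 7 measured in endothelial and 7 of 10 in fibroblast nuclei were past 1.5-fold lower there.

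**Figure D3:**
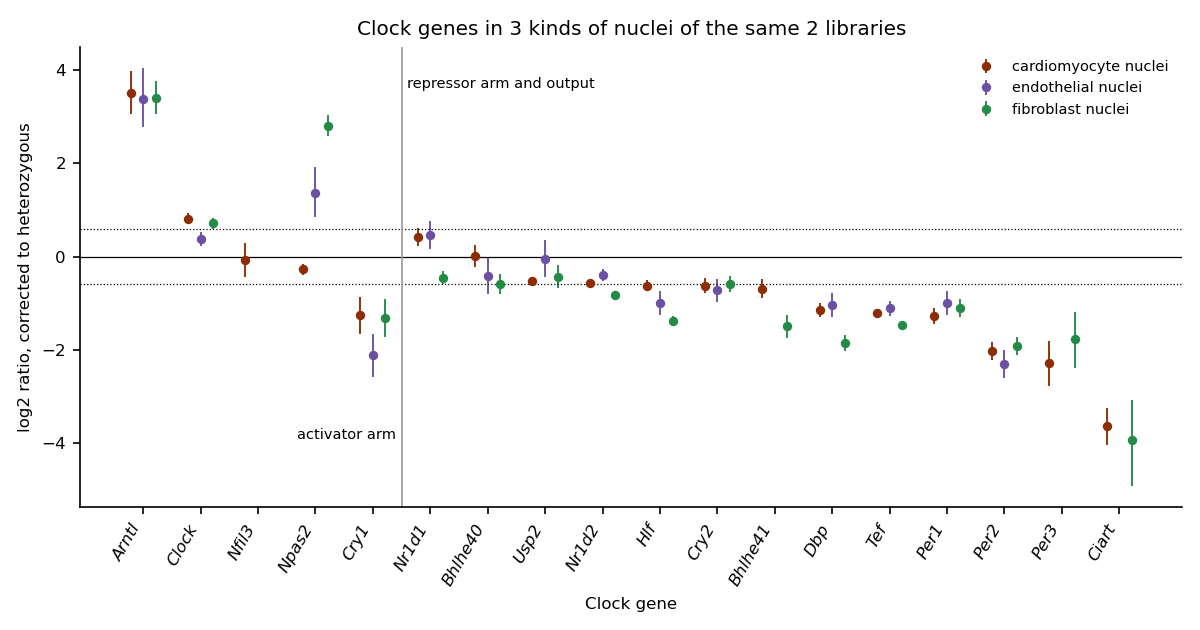
log2 ratio of the corrected to the heterozygous library for 18 clock genes in cardiomyocyte, endothelial and fibroblast nuclei, with 95% intervals of counting error; dotted lines mark 1.5-fold, and a gene with under 100 UMIs in a kind of nuclei has no point there. Arntl is high and Per2, Per1, Tef and Dbp are low in all 3 kinds, while Npas2 is high in fibroblast and endothelial nuclei and at -0.28 in cardiomyocyte nuclei.

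Most of the 22 gene lists of heart muscle lay near the middle. Of their medians 18 were within 0.25 of 0 on the log2 scale, and 9 lists had no member past 1.5-fold. Over all genes 3.63% were past 1.5-fold higher and 2.86% lower, so a list of this size without such a member lies near that share. The same shares stand beside the counts of the lists below. Of the known RBM20 splicing targets listed, 18 lie outside the gate, and none of them was past 1.5-fold in either direction (median log2 ratio 0.10). The largest ratios among them were those of Sh3kbp1 (62.4 and 80.9 CPM), Cacna1c, the pore of the L-type calcium channel (7492 and 9519 CPM), and Lrrfip1 (508 and 632 CPM). Camk2d was at 1029 and 1211 CPM, and the Z-disc genes Ldb3 and Pdlim5 at 1753 and 1746 CPM and at 1119 and 1178 CPM. The 18 splicing regulators had no member past 1.5-fold either (median 0.02), with Qk, the quaking RNA-binding gene, at 1211 and 1656 CPM and Rbm38 at 103 and 77 CPM.

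The 30 sarcomere and Z-disc genes centred on a log2 ratio of 0.05 (median), with Myh7b, Tnnc1 and Tpm2 past 1.5-fold higher and none lower. The list was also higher in endothelial nuclei (23 of 27, median 0.33) and fibroblast nuclei (28 of 30, median 0.33), whose cardiomyocyte-gene share was higher. Tpm2, beta tropomyosin, was at 10.8 CPM in the heterozygous and 22.1 CPM in the corrected library, 2.05-fold higher [1.71 to 2.47]. Myl3, a ventricular light chain gene, was at 230 and 344 CPM, 1.496-fold [1.44 to 1.56] and just short of the limit. The kinase gene Mylk4, whose product acts on myosin light chains, stood at 383 and 277 CPM. The adult and fetal heavy chain genes Myh6 and Myh7 were at 10674 and 11021 CPM and at 233 and 284 CPM.

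Calcium handling genes had no member past 1.5-fold. Of 17 measured members 13 were higher, with a median of 0.22, where 51.6% of all genes were higher. The list was also higher in endothelial nuclei (13 of 16, median 0.36) and fibroblast nuclei (15 of 17, median 0.16), whose cardiomyocyte-gene share was higher too. Atp2a2, which encodes the SERCA pump, stood at 2268 and 3045 CPM, 1.34-fold higher [1.32 to 1.36], with 3325 in WT and 1238 in RBM20 homo. Casq2, cardiac calsequestrin, was at 313 and 425 CPM, and Casq1, the skeletal form, at 39.7 and 58.4 CPM. Cacna2d1, a calcium channel subunit, was at 1855 and 1454 CPM. Strit1, whose micropeptide relieves inhibition of the pump, had no UMI in the heterozygous and 26 in the corrected library (1.53 CPM). That was 8.16-fold higher when the heterozygous library was set to a floor of 3 counts, and the 95% interval of the ratio of counts began at 6.18.

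Among 19 genes of ion channels and gap junctions the median was 0.00, with 2 past 1.5-fold higher and none lower. That median was -0.17 after thinning to 2000 UMIs and -0.09 with at most 1 endothelial and 1 fibroblast UMI. Without nuclei that held a macrophage marker UMI it was -0.11. Abcc9, the sulfonylurea receptor of cardiac potassium channels and also a pericyte marker, was at 182 and 291 CPM. Kcne1, a small subunit of the slow delayed rectifier, rested on 16 and 93 UMIs (1.002 and 5.48 CPM). Gja1, connexin 43, was at 303 and 410 CPM. Kcnj3 and Kcnd3, channels of the acetylcholine-gated and transient outward currents, were at 582 and 437 CPM and at 582 and 438 CPM. Genes of G protein and cyclic nucleotide signalling had a median of -0.06, with Pde8b (9.39 and 18.1 CPM) and Grk5, a receptor kinase (218 and 327 CPM), past the limit among 24. Pde3a, a phosphodiesterase that degrades cAMP, was just short of it at 434 and 651 CPM.

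The 13 measured stress and fetal genes centred on 0.07 (median), with 1 past 1.5-fold each way. Ankrd23 was higher, as above, and its relative Ankrd1, a stretch-induced titin-binding gene, was lower at 1243 CPM in the heterozygous and 728 CPM in the corrected library, 0.586-fold [0.573 to 0.599], with 469 in WT and 3042 in RBM20 homo. Nppa and Nppb, the natriuretic peptide genes, did not separate the 2 libraries: Nppa was at 35.7 and 37.4 CPM, 1.05-fold [0.934 to 1.18], and Nppb at 12.8 and 13.1 CPM, 1.02-fold [0.840 to 1.24], while RBM20 homo stood at 953 and 109 CPM. Nppa was also at 25.2 and 33.1 CPM in endothelial and at 16.7 and 22.3 CPM in fibroblast nuclei. The part of free RNA in its level was not tested. Over the alternative settings the log2 ratio of Nppa ran from 0.03 to 0.49. Immediate early genes had a median of -0.21 over 10 members, with Nr4a1 (13.5 and 6.78 CPM) and Ier3 (14.3 and 7.43 CPM) past 1.5-fold lower. Protein folding genes (15 measured, median 0.09) and p53 targets (13 measured, median 0.14) had no member past the limit; Hspa5, an endoplasmic reticulum chaperone, was at 30.1 and 37 CPM and Ccng1, cyclin G1, at 57.3 and 74.6 CPM.

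Metabolic genes differed little in size. Of 27 fatty acid genes 19 were higher (median 0.06) and of 32 respiratory genes 23 were (median 0.12), where 51.6% of all genes were higher, and none was past 1.5-fold. The respiratory list was also higher in endothelial nuclei (29 of 32, median 0.28) and fibroblast nuclei (28 of 32, median 0.30), whose cardiomyocyte-gene share was higher too. Fabp3, the heart fatty acid binding protein, was at 199 and 290 CPM, and Cox6a2, a muscle subunit of cytochrome oxidase, at 75.5 and 109 CPM. In endothelial nuclei Fabp3 was at 69.4 and 131 CPM and in fibroblast nuclei at 46.4 and 81.3 CPM. Glucose genes had a median of 0.03 over 23 members, with Pfkfb1, a regulator of glycolytic flux, past 1.5-fold lower at 94.6 and 54.7 CPM. Ubiquitin ligase and autophagy genes had a median of -0.01 over 14 members and none past the limit, with Fbxo32, atrogin-1, at 289 and 218 CPM. Sex-linked genes (5 measured, median 0.02) had none past the limit.

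Of 18 measured cardiac transcription factors 5 were higher, where 51.6% of all genes were, and Hopx was the member past 1.5-fold. The median was -0.13, and -0.05 over members with at least 500 UMIs. Tbx5, a T-box factor of the chambers, was at 68.7 and 47.2 CPM, Hand2 at 30.2 and 21.2 CPM and Irx4, a ventricular homeobox gene, at 39.2 and 29.4 CPM. Mef2a was at 475 and 617 CPM. Glucocorticoid-induced genes had a median of -0.05 over 10 members, with Fkbp5 and Mt1 past 1.5-fold lower and Ddit4 past it higher. Over members with at least 500 UMIs their median was -0.32. Fkbp5, a co-chaperone of the receptor, was at 80.0 CPM in the heterozygous and 32.8 CPM in the corrected library, 0.410-fold [0.371 to 0.453], with 18.1 in WT and 247 in RBM20 homo. In both libraries Fkbp5 stood under 0.2 of its level in endothelial or fibroblast nuclei, and the part of RNA from such cells was not tested. Mt1, a metallothionein, was at 45.6 and 18.7 CPM.

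The lists with the highest medians were those of interferon, matrix and noncoding RNA genes. Of 15 measured interferon and antigen presentation genes all 15 were higher, 8 past 1.5-fold (53.3%, where 3.63% of all genes were), with a median of 0.64. Over members with at least 500 UMIs the median was 0.27. B2m, the light chain of class I molecules, was at 6.82 and 13.8 CPM, H2-K1 at 13.8 and 23.1 CPM and Usp18, which trims ISG15 from proteins, at 1.94 and 4.54 CPM. These levels were low: B2m was at 115 and 173 CPM in endothelial nuclei, where 4 of 22 members of the list were past 1.5-fold, and in fibroblast nuclei none of 21 was and 3 were past 1.5-fold lower. Extracellular matrix genes had 5 of 13 past 1.5-fold and a median of 0.54, with Col15a1 at 3.94 and 10.3 CPM and Col3a1 at 9.08 and 16 CPM. In fibroblast nuclei 7 of 17 matrix genes were past 1.5-fold higher, among them Col15a1 at 198 and 473 CPM, and in endothelial nuclei 5 of 14 were. Nuclear noncoding RNAs had 3 of 7 past it and a median of 0.45, with Meg3 at 13.7 and 21.5 CPM, while Malat1 was at 151645 and 151669 CPM. The noncoding median depended on the nuclei and floor used: it was 0.10 at a floor of 500 UMIs, 0.26 at a cardiomyocyte share of at least 5%, 0.34 with at most 1 endothelial and 1 fibroblast UMI, 0.26 without the highest doublet scores and 0.19 after thinning to 2000 UMIs.

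The macrophage and pericyte markers given above were higher beside these 3 lists. Without nuclei that held any UMI of a macrophage marker, 2089 heterozygous and 2699 corrected nuclei were left, and the interferon median was 0.47, the matrix median 0.56 and the count of genes past 1.5-fold higher 322. With a cardiomyocyte share of at least 5% (979 and 1545 nuclei) the interferon median was 0.37 and the matrix median 0.17, while the clock repressor median was -0.81.

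**Figure D4:**
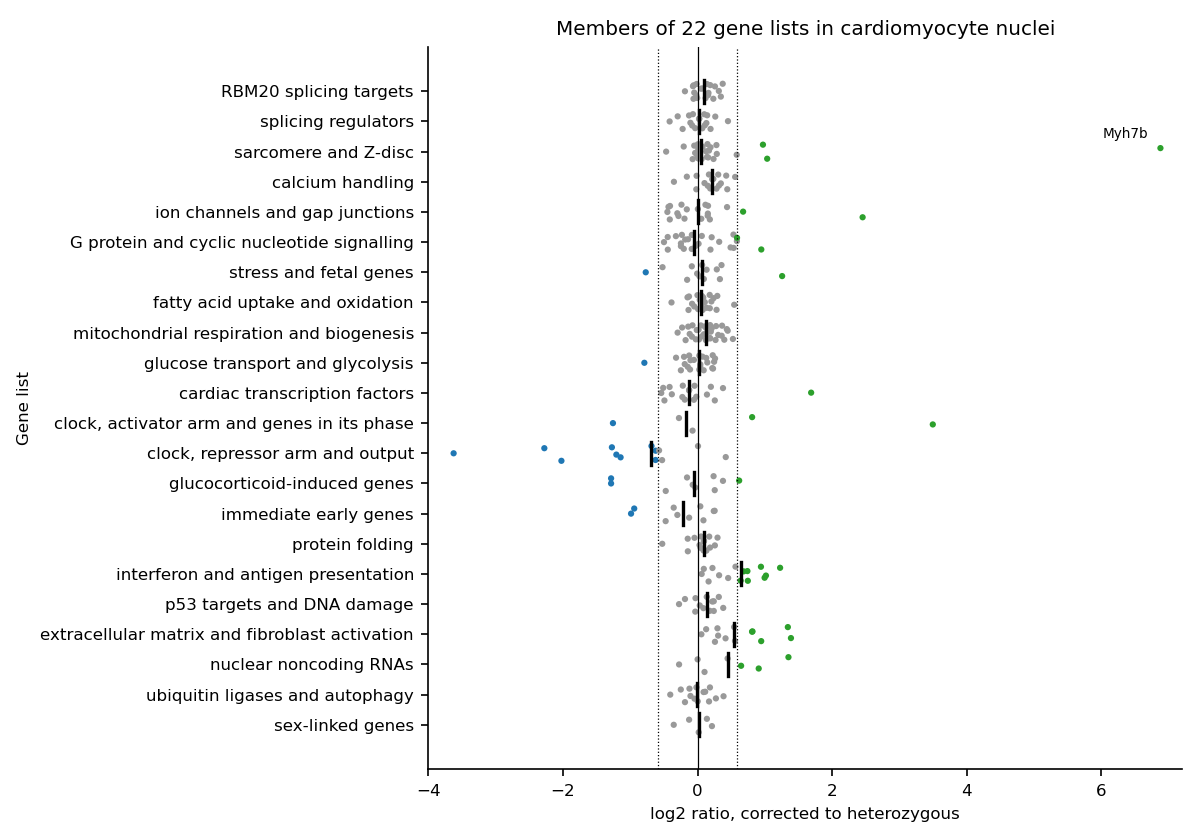
log2 ratio of the corrected to the heterozygous library for measured members of 22 gene lists in cardiomyocyte nuclei; black bars are list medians, dotted lines mark 1.5-fold, and members past it are green (higher) or blue (lower). The RBM20 splicing targets lie between the dotted lines, the clock repressor list lies to the left with a median of -0.69, and the interferon list lies to the right of 0 with a median of 0.64.

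Genes that set RBM20 homo apart from WT were then read in the 2 libraries, which that choice did not use. Of 11777 genes measured there, 365 were gained (3.1%) and 533 lost (4.53%) in RBM20 homo with an interval bound past 2-fold. Of the 309 gained genes measured in the corrected and heterozygous libraries, 27 were past 1.5-fold higher in the corrected library (8.74%) and 37 lower (12.0%), with a median log2 ratio of 0.06. Of the 520 lost genes 40 were higher (7.69%) and 44 lower (8.46%), with a median of -0.07. Within 1.5-fold lay 79.3% of gained and 83.8% of lost genes. Over all genes 3.63% were higher and 2.86% lower, and the medians of both sets lay near the 0.01 of all genes. Over 11294 genes the log2 ratios of the 2 comparisons had a Pearson r of 0.01 and a Spearman rho of 0.09, given as a description across genes, which are not replicates.

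Single members of those sets went different ways. Among the gained genes Tpm2 and Casq1 were higher in the corrected library, as above. Paqr6, a progestin receptor family gene, was lower at 3.13 and 0.295 CPM on 50 and 5 UMIs, and Syndig1 was at 4.95 and 6.84 CPM. Tent5b (18 and 10 UMIs), Cilp (15 and 7 UMIs) and Lncbate10 (16 and 17 UMIs) had ratios whose intervals include 1. Among the lost genes, Myh7b, Hopx and Strit1 were far higher in the corrected library. Lgi1, which encodes a secreted ligand of synapses, was at 6.26 and 11 CPM. The genes Mme (5.32 and 5.25 CPM), Rgs13 (2.19 and 1.65 CPM), Aqp4 (1.69 and 1.53 CPM) and Ccbe1 (52.7 and 50.01 CPM) had ratios whose intervals include 1, with WT at 22.7, 10.6, 7.47 and 74.4 CPM.

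An index per nucleus, the log2 of UMIs of gained genes plus 1 over UMIs of lost genes plus 1 at 2000 UMIs, placed nuclei between the WT and RBM20 homo libraries that defined it. Its median was -2.85 in WT, -1.57 in the heterozygous library, 0.68 in RBM20 homo and -1.71 in the corrected library. The corrected and heterozygous medians differed by -0.14, less than the spread between nuclei of either library. That spread was wider in the corrected library, where the index had an SD of 0.71 over 3177 nuclei and ran from -2.77 at the 5th to -0.46 at the 95th percentile. In the heterozygous library the SD was 0.51 over 2448 nuclei and the range -2.36 to -0.70. Nuclei are not replicates, and whether this difference in spread goes beyond that between hearts was not tested.

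**Figure D5:**
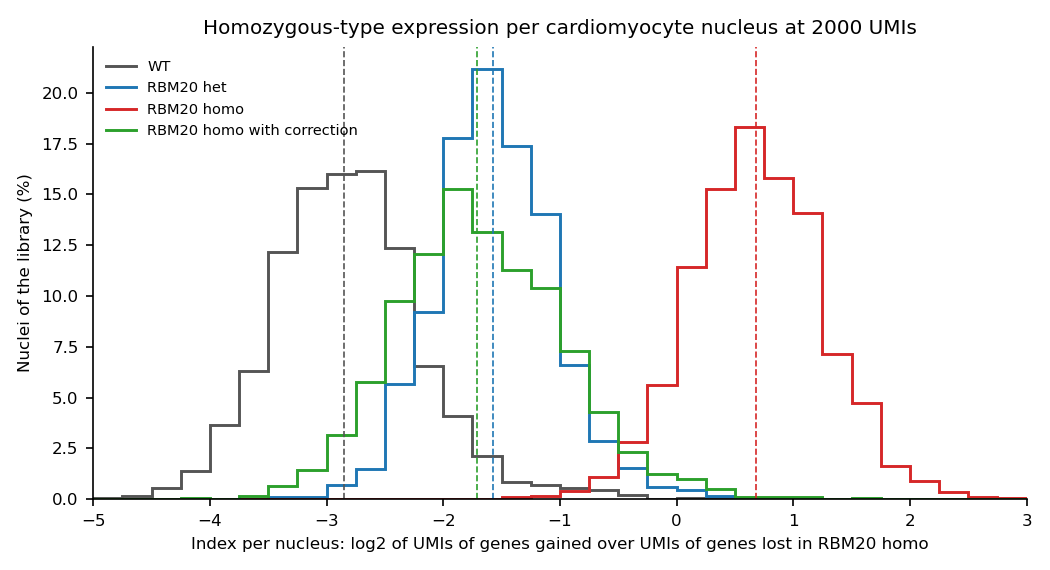
Share of cardiomyocyte nuclei (%) by the index of genes gained over genes lost in RBM20 homo, for each library at 2000 UMIs per nucleus; dashed lines are medians. The corrected and heterozygous medians, -1.71 and -1.57, lie close together between WT and RBM20 homo, and the corrected distribution is the wider of those 2.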

How the data were processed

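Raw UMI counts per gene and barcode were used as deposited by the authors, as whole numbers per the file headers. Cell Ranger 6.1.1, Seurat 4 and the build mm10 (GRCm38) stand in the submitters' processing notes, but Cell Ranger 4.0.0 wrote the matrices, per the file headers. The protocol text also mentions CD45+ immune cells. Whether intronic reads were counted, how barcodes were filtered and what sequences ABE_C and ABE_N are is not given in the sources used here. Libraries held 37180791 (WT), 42375104 (RBM20 het), 52370368 (RBM20 homo) and 51422458 (corrected) UMIs.

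Nuclei were gated as described, with no doublet caller, and UMIs summed per library. CPM is UMIs per 1000000 non-mitochondrial mouse-gene UMIs of the gate. Ratios have exact conditional binomial, levels exact Poisson and shares exact Clopper-Pearson 95% intervals (Python 3.11.15, scipy 1.17.1). PCR and pooling are not covered by them. A call means past 1.5-fold among genes with at least 100 UMIs over the 2 libraries. Named genes were the 15 highest and 15 lowest among those with 100 UMIs or more in the higher library, ranked by the bound of the ratio closer to 1. Left out were mitochondrial, haemoglobin and sex-linked genes, unnamed gene models, the gate's 11 genes, and genes that in both libraries stood under 0.2 of their level in the endothelial or fibroblast gate. Up to 4 members per list by absolute log2 ratio, all clock genes and 8 genes of each RBM20 homo set were also named; other genes named, among them genes overlapping those, known relatives and list members, were chosen after their values were seen. The members and lists were chosen with earlier results of these data known. Alternatives used TMM factors (edgeR 4.0.16 in R 4.3.3), median-of-ratios factors, other floors and gates, and Scrublet scores (scanpy 1.11.5). The ratio code was tested on simulated counts. Values of 4 genes that the rules would name are not reported here, and the figures leave them out.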

Additional observations from a re-analysis of the deposited data

Results flagged for a closer look

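Ddit4, a stress-induced inhibitor of mTOR signalling, had opposite directions in different nuclei of the same 2 libraries. Its log2 ratio of the corrected to the heterozygous library was 0.62 in cardiomyocyte nuclei, -1.19 in endothelial nuclei and -1.18 in fibroblast nuclei. The difference between these kinds of nuclei was not tested, and the cardiomyocyte value rested on 89 and 145 UMIs.

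The features ABE_C and ABE_N, which the gene comparison did not use, had 2516 and 3550 UMIs in the cardiomyocyte nuclei of the corrected library and none in the other 3 libraries. Of the corrected cardiomyocyte nuclei 39.2% held an ABE UMI, against 2.92% of its endothelial and 3.44% of its fibroblast nuclei. These shares are unthinned, and the median depths were 4546 UMIs in cardiomyocyte, 1755 in endothelial and 2481 in fibroblast nuclei.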

How the results depend on the processing

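No paired analysis was possible because each genotype has 1 library and no labels pair them. The counts of genes past 1.5-fold, 416 higher and 327 lower, moved with the floor: 661 and 508 at 50 UMIs, 107 and 127 at 500 UMIs, and 2466 and 2215 with no floor beyond 1 UMI in each library. Past 2-fold they were 91 and 73. The higher count was 242 with a cardiomyocyte share of at least 5%, 262 without the highest Scrublet scores and 230 with each nucleus thinned to 2000 UMIs, where the lower counts were 294, 343 and 259. TMM scaling gave 392 and 351. Shares of nuclei with a UMI at 1000 UMIs per nucleus were 0.121% (Myh7b) and 1.01% (Hopx) in the heterozygous and 11.3% and 2.75% in the corrected library, and the Myh7b share in the corrected library was 23.4% at a cardiomyocyte share of 5%. None of these alternatives reversed a named gene past 1.5-fold, but 9 of 59 such genes came within it under at least 1 alternative (Grk5, Zfp804b, Gbp7, Col3a1, Meg3, Ddit4, Pde8b, Cilp and Lgi1). Leaving out nuclei with macrophage UMIs was chosen after seeing the data. A log2 interval had a median half-width of 0.22 among genes of 100 UMIs or more.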

Other observations

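A further group of genes would have ranked among the named ones but was left out for being far stronger in endothelial or fibroblast nuclei. They numbered 21, and all but Reln (0.305-fold) and Fkbp5 (0.410-fold) were higher in the corrected library. Among them were the leukocyte genes Lcp1 (3.87-fold), Cyth4 (3.28-fold), P2rx7 (2.70-fold), Bank1 (2.49-fold) and Prkcb (2.38-fold), and the matrix genes Col5a3 (4.71-fold), Eln (2.72-fold) and Col15a1 (2.62-fold). The part of nuclei of other types or of free RNA in these values was not tested. These genes were reached by ranking on the ratio of the corrected to the heterozygous library. Their directions therefore describe the ranked genes only. The share that was higher over all genes far stronger in endothelial or fibroblast nuclei was not taken.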
